A study of Mus musculus with 2 samples.

Results

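The gene models described here are the rows of a liver RNA table whose locus is the same as that of at least 1 other row. Each row of the table is a gene model with a row number and a locus, and a locus counted as shared when its chromosome, start and end were identical in 2 or more rows. Of 3592 rows, 416 (11.6%) shared their locus, and they formed 201 of the 3377 distinct loci. Per the labels, the table compares the liver of male C57BL/6 mice, an inbred strain, aged 8 to 12 weeks, after sham treatment (1 library) and after cold storage (1 library). For cold storage, per the labels' protocols, livers were taken out of anaesthetised mice, flushed with the organ preservation fluid UW solution and stored at 4 °C for either 12 h or 24 h. Neither the storage time of the cold-storage library nor whether a library came from 1 animal or a pool is stated. Values are RPKM, which scale a model's reads to its length and to all reads mapped in that library. With 1 library per group, no test and no replicate error is available, and every difference below is between these 2 libraries.

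Gene models can share a stretch of genome in several ways. A gene can lie within an intron of another, run into its neighbour, or be transcribed from the opposite strand across the same bases, as many long non-coding RNAs are relative to protein-coding genes. Short reads from bases that both models cover have to be divided between them, and without a record of the strand they cannot be told apart. Where models cover the same bases, the split of RPKM between them therefore depends both on which transcripts were present and on how reads were assigned. An identical locus does not show that they do, and the bases covered by each model are not given. Within a locus, the share that each model held of the summed RPKM was used here, because a scale difference between the libraries cancels in it.

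The table gives no strand and no gene name, and none of the 17 liver cell type markers looked for matched a row name, so the labelled tissue could not be checked. Of the 201 shared loci, 21 (10.4%) began beyond every mouse gene that GRCm38 places on the chromosome so named, against 406 of all 3592 rows (11.3%). On chromosome 2 the last shared locus ended at 242.3 Mb, whereas the last GRCm38 mouse gene ends at 182.0 Mb. The submitters' processing notes name build mm9, a mouse genome, but because of these positions the loci were not read as mm9 or GRCm38 coordinates. Which genome, and which species' gene models, the positions belong to was not established here, so each locus named below is a position in the table and not a known mouse gene. No model could be given an exon, an intron or a UTR, and the mouse origin of the RNA rests on the labels. At a locus, the models are told apart by row number as lower-numbered and higher-numbered.

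Most shared loci held a pair of models. There were 189 loci with 2 models, 10 with 3 and 2 with 4. They lay on 20 of the 21 chromosomes in the table, most often on chromosome 2 (24 loci), chromosome 17 (21 loci), and chromosomes 11 and 12 (17 loci each). Their spans ran from 2190 to 981111 bp, with a median of 97708 bp, against a median of 57454.5 bp for the rows with a locus of their own. Loci in the table were either identical or separate: 0 of the 3377 distinct loci overlapped another.

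The row numbers held a feature that the choice of loci did not use. On 20 of the 21 chromosomes, row numbers passed along the chromosome from its start to its end and then began again at its start, giving 2 runs. At 157 of the 189 loci with 2 models (83.1%), the models lay in different runs, and their numbers differed by 506 to 2388, with a median of 1252. At the other 32 loci both models lay in the same run, and their numbers differed by 1 to 4. In 27 of these 32 the numbers were consecutive. No source used here says what a run stands for. Row numbers reached 56038 whereas 3592 rows were listed, so a shared locus may also hold models that are not listed, and every share below is a share among the listed models. No row was listed at 0 in both libraries, so a model at 0 in both could not enter the loci counted here.

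In each library 1 model usually held nearly all of the RPKM of its locus. In the sham library, 179 of the 201 loci had a summed RPKM above 0, and the leading model, the one with the highest RPKM, held a median of 99.8% of it. In the cold-storage library, 187 loci were above 0 and the median leading share was 98.5%. The leading model held at least 90% at 134 of 179 loci (74.9%) in sham and at 122 of 187 (65.2%) in cold storage. Pairs of neighbouring rows with loci of their own, taken in order along each chromosome without reuse, served as a background. There the leading row held at least 90% in 71.3% of 1436 pairs in sham and in 71.0% of 1477 pairs in cold storage. The shares differed from these backgrounds by a few percentage points, upward in sham and downward in cold storage, and the differences were not tested.

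**Figure D1:**
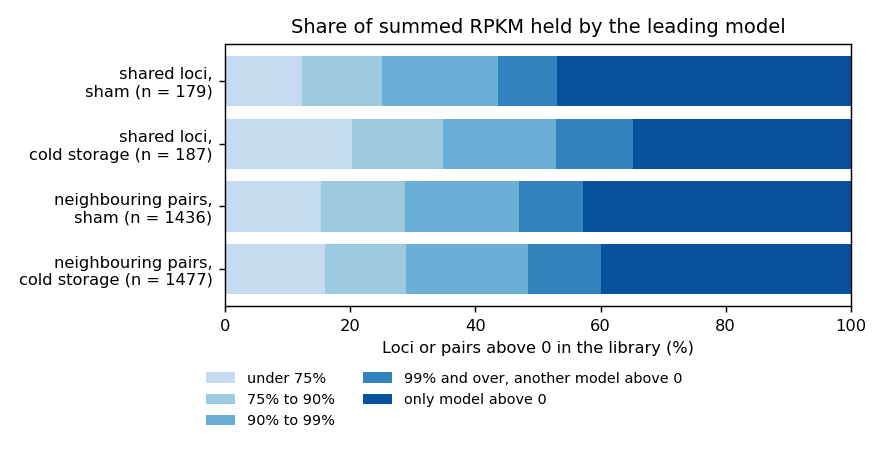
Percent of shared loci and of neighbouring pairs (x axis) in each class of the leading model's share of summed RPKM, with 1 bar per set and library and darker blue for a larger share. The class in which only 1 model was above 0 made up 46.9% of shared loci in sham and 34.8% in cold storage.

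Many of these leads were complete because every other listed model of the locus was at 0. Only 1 model was above 0 at 84 of 179 loci (46.9%) in sham and at 65 of 187 (34.8%) in cold storage. Among neighbouring pairs the shares were 42.8% and 40.01%. Of the 416 rows, 137 (32.9%) were listed at 0 in the sham library, against 29.2% of all rows, and 99 (23.8%) in cold storage, against 25.2% of all rows. A listed 0 may also be an estimate that failed. Where every model of a locus was above 0, the leading share had a median of 91.5% over 91 loci in sham and 89.3% over 118 loci in cold storage. It reached 90% at 48 of those 91 loci (52.7%) and at 55 of those 118 (46.6%). Among neighbouring pairs with both rows above 0, it reached 90% in 410 of 822 pairs (49.9%) in sham. In cold storage this held for 458 of 886 such pairs (51.7%). The median leading share of these pairs was 89.96% in sham and 90.7% in cold storage. Shared loci were thus slightly above this background in sham and slightly below it in cold storage, and these differences were not tested.

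Nearly even splits were uncommon. The leading share was under 60% at 13 of 179 loci in sham and at 13 of 187 in cold storage. Either row-number order could lead: at loci with 2 models the lower-numbered model led at 78 of 168 in sham and at 91 of 176 in cold storage. The 90% bound separates values that lie close together. In the sham library the loci just inside it had leading shares of 90.3% (chromosome 1, from 21069153 to 21113816) and 90.6% (chromosome 1, from 201951499 to 201986316). Those just outside had 89.99% (chromosome 3, from 150259780 to 150348222) and 89.9% (chromosome 1, from 43629845 to 43739673).

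The leading model was often not the same in the 2 libraries. Of 165 loci with a summed RPKM above 0 in both, 93 (56.4%) had the same leading model in sham and cold storage and 72 (43.6%) had a different one, called a switch below. Among 1331 neighbouring pairs above 0 in both libraries, 36.5% switched. No locus had tied models. At the 92 loci where the leading model held at least 90% in both libraries, it was the same model at 49 and a different one at 43. At 29 of these 43 loci, the leading model held all of the listed RPKM in both libraries. Such a locus could only be counted as a switch, because no row was listed at 0 in both libraries. The split of 49 to 43 therefore does not show how often a dominant model changed. Switches went in both directions of the row numbers: at loci with 2 models, 32 of 69 went from the lower-numbered to the higher-numbered model and 37 the other way. They were about as frequent where the models lay in the same run of row numbers (13 of 31 loci, 41.9%) as where they lay in different runs (59 of 134, 44.0%), and these percentages were not tested against each other.

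**Figure D2:**
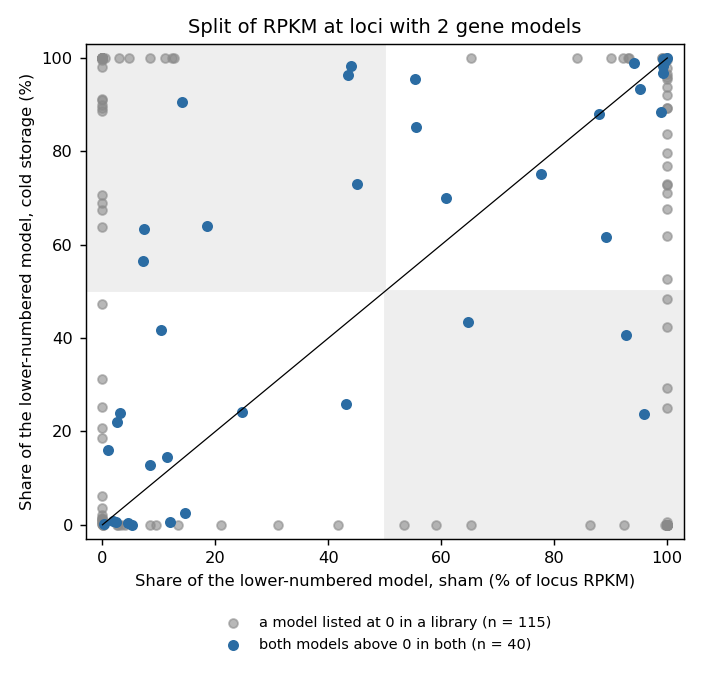
Share of the lower-numbered model in the sham library (x axis, percent) and in cold storage (y axis, percent) at the 155 loci with 2 models that were above 0 in both libraries. Points in the grey squares are the 69 loci whose leading model differed, and most of those lie on the edges, where a model was listed at 0.

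Most switches rested on a value of 0. Since no row was listed at 0 in both libraries, a model at 0 in 1 library was listed only through its value in the other. A locus whose second model was at 0 in both could not be counted. The share that switched therefore holds for listed rows only, and the same limit applies to the neighbouring pairs. At 62 of the 72 loci, the leading model of 1 library was listed at 0 in the other, and at 30 of them this held for both leading models. The remaining 10 loci had every model above 0 in both libraries. Over the 41 loci of that kind, 31 (75.6%) had the same leading model and 10 (24.4%) switched, whereas 15.3% of 339 neighbouring pairs with every value above 0 switched. This difference was not tested. A lead of at least 75% in both libraries was part of the switch at 2 of the 10 loci, and a lead of at least 90% in both at 0 of them.

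Switches were concentrated at loci of low RPKM. Where the summed RPKM, averaged over both libraries, was under 0.1, the leading model differed at 18 of 20 loci (90%). The share was 67.6% of 37 loci at 0.1 to 0.5 RPKM, 46.3% of 41 loci at 0.5 to 2 RPKM and 20.6% of 34 loci at 2 to 10 RPKM. At 10 RPKM or more it was 3 of 33 loci (9.09%). Neighbouring pairs showed the same order, from 68.1% of 204 pairs under 0.1 RPKM to 6.72% of 238 pairs at 10 RPKM or more. At 2 to 10 RPKM they switched more often than shared loci, in 23.9% of 305 pairs. With a floor of 0.5 RPKM on the mean sum, 29 of 108 shared loci (26.9%) switched, against 24.2% of 847 neighbouring pairs, so the gap between the sets was smaller than without the floor. Read counts are not part of the table, so the depth behind these values is unknown and the part of counting error in the switches was not tested.

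**Figure D3:**
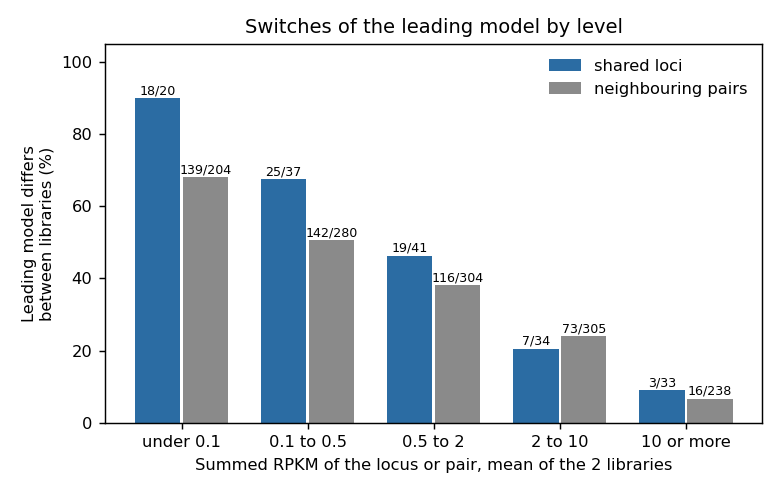
Percent of shared loci (blue) and of neighbouring pairs (grey) whose leading model differed between the libraries (y axis), by summed RPKM averaged over the 2 libraries (x axis). The numbers above the bars are switches over loci or pairs, and the blue bars go from 90% at the lowest level to 9.09% at the highest.

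The amount of RPKM share that changed hands followed the same order. This amount is the number of percentage points that would have to pass between models to turn the sham split into the cold-storage split. Its median was 29.6 points over the 165 loci, against 22.6 points over the 1331 neighbouring pairs above 0 in both libraries. Of the 165 loci, 56 changed by under 10 points whereas 69 changed by at least 50. Neighbouring pairs were not counted by these bounds. At loci of 10 RPKM or more the median was 3.43 points, against 1.03 points for neighbouring pairs of that level. Where every model was above 0 in both libraries it was 10.4 points over 41 loci, and it was 10.5 points over the 339 neighbouring pairs of that kind. The model that led in the sham library held a mean of 93.4% there and of 54.5% in cold storage. Taken the other way, the model that led in cold storage held a mean of 90.6% there and of 55.1% in sham. A model picked for its lead in 1 library thus held less in the other, whichever library was used to pick it.

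The 8 most abundant shared loci all kept their leading model, and at 6 of them it held at least 90% in both libraries. On chromosome 12, from 56544579 to 56584068, the lower-numbered model had 786.4 RPKM in sham and 150.6 RPKM in cold storage, and the higher-numbered model 1.71 and 0.375 RPKM. The leading share there was 99.8% in both libraries, although the summed RPKM was lower in cold storage. On chromosome 3, from 15708742 to 15901278, the lower-numbered model had 1031 and 1295 RPKM and the other 1.07 and 0.0423 RPKM. The leading model there was at a similar level in both libraries, whereas the minor one was lower in cold storage, so that its share went from 0.104% to 0.00326%. As log2 of RPKM plus 0.1, cold storage over sham, the ratio was 0.33 for the leading and -3.04 for the minor model. The median over the 962 rows compared below was -3.50, so the leading model was the one further from most rows.

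At 4 more of these 8 loci the minor models were listed at 0 in sham and above 0 in cold storage. On chromosome 6, from 30568176 to 30594172, the leading model had 285.5 RPKM in sham and 21.3 RPKM in cold storage, and the other was at 0 and 0.0137 RPKM. On chromosome 1, from 154179181 to 154243986, the leading model had 218.9 and 1.65 RPKM and the other 0 and 0.0586 RPKM. On chromosome 14, from 65381078 to 65569413, the leading model had 290.5 and 0.214 RPKM and the other 0 and 0.00153 RPKM. Its leading share in cold storage, 99.3%, thus rests on low values. In each of these loci the sham library listed the leading model alone, and the cold-storage library listed a trace of the other. A model at 0 in sham had to be above 0 in cold storage to be listed. The last of the 4 has 3 models, on chromosome 16 from 29817426 to 29859355: the leading one had 140.2 and 7.01 RPKM, and the others were at 0 in sham and at 0.354 and 0.271 RPKM in cold storage.

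Splits changed most among the 8 at a locus on chromosome 14 and at one on chromosome 9. On chromosome 14, from 102547074 to 102771537, the lower-numbered model had 122.7 RPKM in sham and 40.3 RPKM in cold storage. The higher-numbered model, XLOC_014968, had 99.1 RPKM in sham and 1.90 RPKM in cold storage. Nearly even in sham, with 55.3% against 44.7%, the locus was held almost wholly by the lower-numbered model in cold storage, with 95.5% against 4.50%. On chromosome 9, from 86582998 to 86595569, the leading higher-numbered model had 222.1 and 16.3 RPKM, whereas the lower-numbered model had 2.28 and 3.12 RPKM. The minor share there was 1.02% in sham and 16.0% in cold storage.

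Clear switches at loci of at least 0.5 RPKM on average, with a lead of at least 75% in both libraries, numbered 16 of 108 loci, and 15 of the 16 involved a model listed at 0. At 5 of them only 1 model was above 0 in each library, and not the same one. The locus with the highest sham value among these 16 that involved a 0 lay on chromosome 15, from 63900816 to 64126141. Its lower-numbered model had 46.5 RPKM in sham and was listed at 0 in cold storage, and its higher-numbered model had 0.192 and 0.0129 RPKM. The cold-storage lead there rests on 0.0129 RPKM alone. Likewise, on chromosome 12 from 57449425 to 57607134, the higher-numbered model had 1.28 RPKM in sham and 0 in cold storage, and the lower-numbered one 0 and 0.00130 RPKM.

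At other loci of this kind the model that led in cold storage had a higher RPKM than any model in sham. On chromosome 1, from 160259062 to 160328742, the highest-numbered of 3 models had 2.27 RPKM in sham and 0.215 RPKM in cold storage, and the lowest-numbered one 0 and 4.34 RPKM. The remaining model had 0.0456 RPKM in sham and was listed at 0 in cold storage. On chromosome 15, from 37181405 to 37393504, the higher-numbered model had 0.201 and 0.0423 RPKM and the lower-numbered one 0 and 2.09 RPKM. Both loci had more summed RPKM in cold storage than in sham, which held for 15 of the 165 loci. Of these 15 loci, 12 switched, against 72 of all 165 loci (43.6%). Several of the 15 had a low summed RPKM, the level at which switches were most frequent. Neighbouring pairs with a higher sum in cold storage were not counted, and the difference was not tested.

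**Figure D4:**
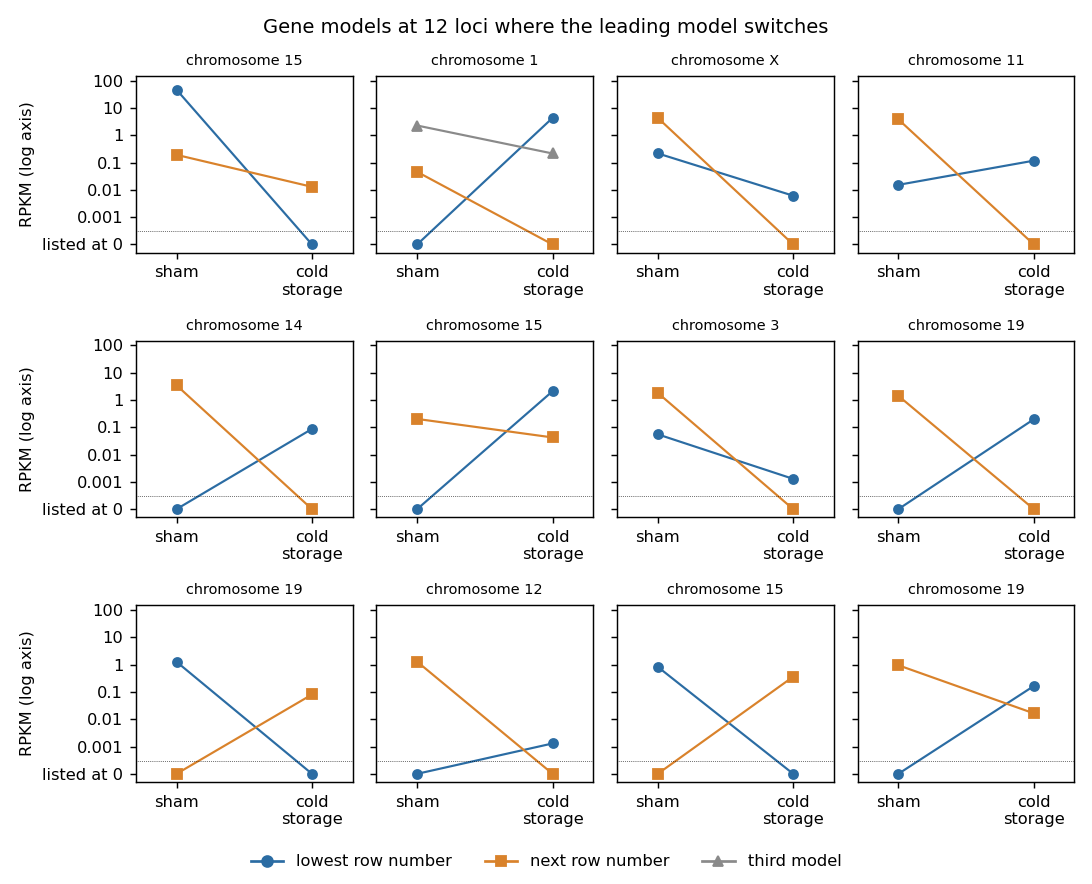
RPKM (y axis, log scale, with values of 0 drawn below the dotted line) of each gene model in the sham and cold-storage libraries at 12 loci where the leading model differed, each panel 1 locus, ordered by mean summed RPKM. Lines cross in every panel, and in each panel at least 1 model is listed at 0 in a library.

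The 12 loci with the largest change of share among these 16 include others with low cold-storage values. Outside the 16, share also moved by 100 points at loci of lower RPKM, and over all 165 loci this held at 29. On chromosome 11, from 818901 to 842545, the higher-numbered model had 3.82 RPKM in sham and 0 in cold storage, and the lower-numbered one 0.0153 and 0.117 RPKM. On chromosome X, from 100645811 to 100669121, the higher-numbered model had 4.35 RPKM and 0, and the lower-numbered one 0.217 and 0.00610 RPKM. On chromosome 14, from 77228531 to 77253067, the higher-numbered model had 3.44 RPKM and 0, and the lower-numbered one 0 and 0.0868 RPKM. In all 3 the model that led in sham was listed at 0 in cold storage. On chromosome 3, from 127770483 to 128127485, where the models have consecutive numbers, the higher-numbered one had 1.81 RPKM and 0 and the lower-numbered one 0.0550 and 0.00128 RPKM.

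Chromosome 19 held 3 of the 12, and chromosome 15 another 3. From 4838343 to 4867780 on chromosome 19, the higher-numbered model had 1.42 RPKM in sham and 0 in cold storage, and the lower-numbered one 0 and 0.196 RPKM. From 3052907 to 3063105 the order was the opposite, with 1.27 RPKM and 0 for the lower-numbered model and 0 and 0.0805 RPKM for the higher-numbered one. From 14625581 to 14676792 the higher-numbered model had 0.948 and 0.0164 RPKM and the lower-numbered one 0 and 0.164 RPKM. On chromosome 15, besides those above, from 67493370 to 67819628, the lower-numbered model had 0.829 RPKM and 0, and the higher-numbered one 0 and 0.361 RPKM.

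The 10 switches in which no model was at 0 give the clearest view of a changed split, and those described next were picked after their values were seen. The most abundant lay on chromosome 16, from 4853203 to 4932361. There XLOC_017018 had 46.5 RPKM in sham and 0.248 RPKM in cold storage, and the higher-numbered model 2.05 and 0.795 RPKM. The sham leader held 95.8% in sham and 23.8% in cold storage. On chromosome 2, from 204192941 to 204400133, the higher-numbered model had 0.409 and 0.00911 RPKM and the other 0.0669 and 0.0879 RPKM. These were the 2 loci without a 0 at which the lead was at least 75% both times. The locus on chromosome 2 changed by 76.6 points, the largest change among the 41 loci with every model above 0.

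Another 4 of the 10 had a clear lead in sham and a weaker one in cold storage. On chromosome 12, from 49521564 to 49541652, the lower-numbered model had 7.15 and 0.215 RPKM and the higher-numbered one 0.569 and 0.315 RPKM. On chromosome 8, from 38082735 to 38239790, the higher-numbered model had 2.33 and 0.0214 RPKM and the lower-numbered one 0.186 and 0.0370 RPKM. On chromosome 17, from 17584786 to 17740325, the higher-numbered model had 1.47 and 0.0146 RPKM and the lower-numbered one 0.114 and 0.0190 RPKM. In all 3 the sham leader held between 92.6% and 92.8% in sham, and the cold-storage leader between 56.6% and 63.3% in cold storage. The fourth, on chromosome 12 from 104609556 to 104744061, has consecutive row numbers and was higher in cold storage for both models, at 0.0498 and 0.733 RPKM for the lower-numbered and 0.218 and 0.411 RPKM for the higher-numbered one.

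At 2 of the 10 loci a nearly even sham split was one-sided in cold storage. On chromosome X, from 41374186 to 41782716, the lower-numbered model, XLOC_053769, had 2.77 RPKM in sham and 6.27 RPKM in cold storage. The higher-numbered model of that locus had 3.61 and 0.240 RPKM. The summed RPKM of this locus was 6.38 in sham and 6.51 in cold storage, so the total was close while 52.9 points of share changed hands. On chromosome 2, from 85766287 to 85788670, the lower-numbered model had 1.36 and 0.825 RPKM and the higher-numbered one 1.73 and 0.0142 RPKM, with a cold-storage lead of 98.3%.

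At the last 2, no model held more than 72.9% in either library. On chromosome 17, from 38175350 to 38256978, the lower-numbered model had 16.8 and 1.17 RPKM and the higher-numbered one 20.6 and 0.434 RPKM. On chromosome 6, from 33032345 to 33054978, the lower-numbered model had 9.09 and 0.143 RPKM and the higher-numbered one 4.97 and 0.186 RPKM. These are among the 5 loci with the smallest average lead at 0.5 RPKM or more. The others are a locus of 2 models on chromosome 1 and the loci with 4 models. On chromosome 1, from 35734567 to 35887659, both models kept their order, with 7.97 and 1.001 RPKM against 5.14 and 0.430 RPKM.

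Both loci with 4 models were above 0 in both libraries. On chromosome 3, from 52529353 to 52742182, the leading model had 1.03 RPKM in sham and 0.207 RPKM in cold storage, a share of 43.7% and 87.1%. The others had 0.806, 0.517 and 0 RPKM in sham and 0.00940, 0 and 0.0213 RPKM in cold storage. On chromosome 7, from 98923520 to 99063954, the model that led in sham, with 0.584 RPKM and 51.2%, was listed at 0 in cold storage, and the model that led in cold storage, with 0.287 RPKM and 63.7%, was at 0 in sham. The other models of that locus had 0.263 and 0.294 RPKM in sham and 0.141 and 0.0227 RPKM in cold storage. Of the 8 loci with 3 models and RPKM above 0 in both libraries, 2 switched. On chromosome 11, from 118307204 to 118473748, the leading model of 3 had 23.3 and 1.72 RPKM, or 99.8% and 98.5%. On chromosome 12, from 54624723 to 54745633, the models had 4.96, 0.388 and 0.0349 RPKM in sham and 0.278, 0.0285 and 0.00452 RPKM in cold storage, in the same order.

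Where both models of a pair were above 0 in both libraries, the ratio between them was related in the 2 libraries but not close to constant. Over 40 such loci, the log2 ratio of lower- to higher-numbered model had a Spearman rho of 0.79 and a Pearson r of 0.79 between sham and cold storage. This is a description across loci, which all come from the same 2 libraries and are not replicates. Over the 339 neighbouring pairs, rho was 0.81 and r was 0.81. The median absolute change of the log2 ratio was 2.45 at shared loci and 2.03 in neighbouring pairs. The ratio stayed within 2-fold at 10 of 40 shared loci (25.0%) and in 78 of 339 neighbouring pairs (23.0%). Its log2 changed by at least 4 at 12 of the 40 loci (30.0%) and in 58 of the 339 pairs (17.1%). These differences were not tested.

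**Figure D5:**
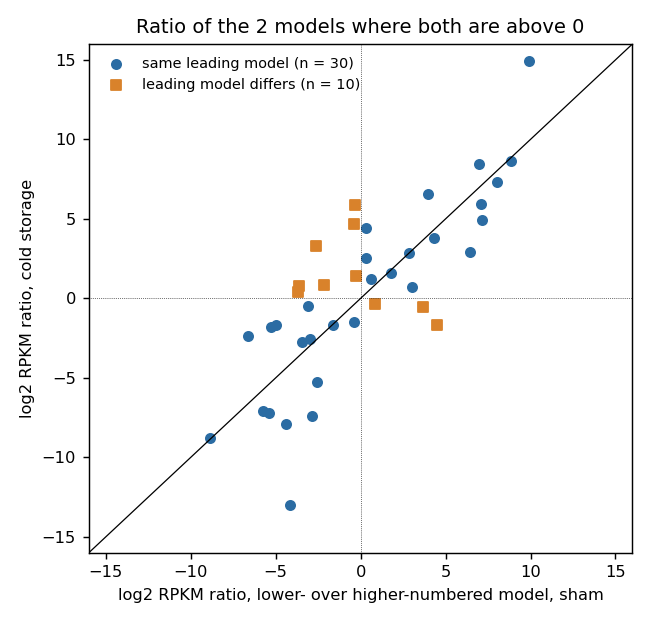
Log2 ratio of RPKM, lower- over higher-numbered model, in the sham library (x axis) and in cold storage (y axis) at the 40 loci with 2 models that were all above 0, with the diagonal marking equal ratios. Orange squares are the 10 loci whose leading model differed, and 10 of the 40 points lie within 1 log2 unit of the diagonal.

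Some splits were nearly the same in both libraries although the RPKM was much lower in cold storage. On chromosome 17, from 29335514 to 29709134, the models had 0.324 and 0.0443 RPKM in sham and 0.0175 and 0.00239 RPKM in cold storage, and the leading share was 88.0% both times. On chromosome 6, from 170102232 to 170124151, the leading model had 21.96 and 0.618 RPKM and the other 0.0472 and 0.00139 RPKM, with a leading share of 99.8% both times. On chromosome 17, from 37415383 to 37607539, the leading share was 75.4% in sham and 75.9% in cold storage. These 3 were picked after their values were seen. The largest change of ratio without a switch, also picked that way, was on chromosome 2 from 47922668 to 48135298. There the leading model had 49.0 and 28.8 RPKM and the other 2.72 and 0.00357 RPKM.

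Some shared loci were listed at 0 for every model in 1 library. As no row was listed at 0 in both libraries, every model of such a locus was above 0 in the other library. Sums were above 0 at 179 of the 201 loci in sham and at 187 in cold storage. Of 1582 neighbouring pairs, 1436 were above 0 in sham and 1477 in cold storage. In the sham library 22 loci (10.9%) were at 0 throughout. Their summed RPKM in cold storage ran from 0.00294 to 3.98, with a median of 0.188. In cold storage 14 loci (6.97%) were at 0, with summed sham values of 0.181 to 9.99 RPKM and a median of 1.46. The highest of the first kind, on chromosome 15 from 75246756 to 75313837, had 3.95 RPKM in its lower-numbered and 0.0358 RPKM in its higher-numbered model in cold storage. Next to it, on chromosome 17 from 45726841 to 45762871, the models had 0.00514 and 2.58 RPKM. The highest of the second kind, on chromosome 19 from 39138288 to 39260544, held models of 3.75 and 6.25 RPKM in sham. On chromosome 12, from 6857169 to 6880116, the models had 0.993 and 6.96 RPKM in sham. For these loci no fold between the libraries was taken and no switch could be read.

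As single rows, the models at shared loci differed between the libraries about as rows in general did. Rows with a mean of at least 0.5 RPKM that were above 0 in sham and in cold storage were compared as log2 of RPKM plus 0.1, a scale that shrinks differences of low rows. Of 112 such rows at shared loci, 100 (89.3%) had an RPKM at least 2-fold lower after cold storage, against 92.0% of all 962 compared rows, and 2 (1.79%) were at least 2-fold higher, against 1.25%. The median of their log2 ratios, cold storage over sham, was -3.38, against -3.50 over all compared rows. Relative to the median of all compared rows, 29 (25.9%) were at least 2-fold higher, against 24.3% of all, and 23 (20.5%) were at least 2-fold lower, against 22.9%.

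The higher rows were XLOC_053769 on chromosome X, described above, and XLOC_021036 on chromosome 17, from 73772514 to 73821886. XLOC_021036 had 1.204 RPKM in sham and 2.61 RPKM in cold storage, and the lower-numbered model of its locus 0.207 and 0.0667 RPKM. At both loci 1 model was higher and the other lower in cold storage. Taken as locus sums, 96 of 108 loci (88.9%) were lower by at least 2-fold after cold storage and 3 (2.78%) were at least 2-fold higher. Sums of neighbouring pairs were not compared between the libraries, so these counts have no background of their own kind. The 3 higher loci all switched, against 29 of the 108 loci (26.9%). They lay on chromosome 15 from 37181405, on chromosome 12 from 104609556 and on chromosome 17 from 80186272 to 80231607. In the last, picked after its values were seen, the higher-numbered model had 1.004 RPKM in sham and 1.007 RPKM in cold storage, and the lower-numbered model 0 and 7.84 RPKM. The median log2 ratio of locus sums was -3.63 at the 29 switching loci and -3.33 at the 79 others, a difference that was not tested.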

How the data were processed

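The authors deposited a table of RPKM, with 1 column per library and 1 row per gene model. The column names carry the codes the labels give for the libraries, and 0 other columns of values were left out. Build mm9 is named in the submitters' processing notes, but the loci were not treated as mm9 positions because some lie beyond the mouse genes of their chromosome. The aligner, counter, annotation and strand setting are not given in the sources used. Loci were matched as text. Shares were computed without a pseudocount or floor. Row differences used a pseudocount of 0.1 and a floor of 0.5 RPKM. No count model or test was run, since the values are RPKM and each group has 1 library. The depth is unknown and no interval is given.

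The members, lists and rules were chosen with earlier results of these data known. The rule for named loci took up to 12 switches with a lead of at least 75% and a mean sum of at least 0.5 RPKM, the 8 most abundant loci, 4 with at least 3 models, the 5 most even, 4 listed at 0 in 1 library and 4 near the 90% bound. Row identifiers were limited to 2 per direction. Alternatives were other share thresholds, floors and pseudocounts, and rules on values of 0. Python 3.11.15, numpy 2.4.6, pandas 2.3.3 and matplotlib 3.10.9 were used.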

Additional observations from a re-analysis of the deposited data

How the results depend on the processing

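No paired analysis was possible because each group has 1 library, so no library could be left out either. The share of loci with the same leading model, 56.4%, was 73.1% (79 of 108 loci) with a mean summed RPKM of at least 0.5 and 75.6% (31 of 41) where every model was above 0. It was 86.8% (59 of 68) where the sum reached each library's median over shared loci, which is 1.42 RPKM in sham and 0.181 RPKM in cold storage. The share that switched, 43.6% (72 loci), was 26.9% (29), 24.4% (10) and 13.2% (9) under these settings, in the order of sums of at least 0.5, every model above 0 and each library's median. Neighbouring pairs went from 36.5% to 24.2% with the 0.5 floor and to 15.3% where every value was above 0. The share of shared loci that switched lay between 41.6% and 46.7% under the other settings, 4 of which were chosen after seeing the data. The 46.7% was for leads of at least 90% in both libraries, a set that includes loci that could only switch. A pseudocount cannot change which model leads.

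The share with a dominant model, 74.9% in sham and 65.2% in cold storage, was 87.7% and 79.7% at a bound of 75%, 66.5% in sham at 95%, and 56.4% and 47.1% at 99%. It was 56.1% (23 of 41) and 46.3% (19 of 41) where every model was above 0. With a pseudocount of 0.01 it was 63.1% (113) and 39.0% (73), and with 0.1 it was 46.4% (83) and 16.0% (30): a fixed pseudocount weighs more in the library of lower values. The median change of the sham leader's share, -25.3 points, was -3.86 with the floor of 0.5, -1.31 with that of each library's median and -2.41 where every model was above 0. It was -27.0 with exactly 2 models and -26.8, -22.1 and -22.0 with pseudocounts of 0.01, 0.1 and the library's 5% quantile. The median log2 change of the ratio of leading to second model over 42 loci was -0.45. It was -1.02 and -1.53 with pseudocounts of 0.01 and 0.1, and -0.59 with the floor of 0.5. The share of rows at least 2-fold lower, 89.3%, was 79.5% at a pseudocount of 1, 75.6% without a floor and 20.5% relative to the median.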
